A study of Homo sapiens with 12 samples.

Results

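The small nucleolar RNA host genes are genes whose introns carry small nucleolar RNAs (snoRNAs) and whose own spliced RNA is, for nearly all of them, long and noncoding. Members were taken by symbol, as every gene named SNHG plus a number together with GAS5, ZFAS1 and EPB41L4A-AS1. This gave 31 of the 60649 genes in the deposited count tables. Counts were enough to test 28 of the 31, and the other 3 had no count in any library.

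The RNA came from SBC3, a human small cell lung cancer line grown as spheroids, and all groups are this 1 line. The labels define 4 groups of 3 libraries. The control group is labelled only as control, and the teriflunomide group received an inhibitor of dihydroorotate dehydrogenase, the mitochondrial enzyme of pyrimidine synthesis that is also the target of its parent drug leflunomide. The lurbinectedin group received a DNA-binding drug that blocks transcription by RNA polymerase II, and the combination group received both drugs. The labels give no dose and no time, and nothing in them says that the libraries of a group came from separate cultures, so every p-value below measures only the spread between these libraries. Libraries were made from polyadenylated RNA with the KAPA mRNA HyperPrep kit.

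SnoRNAs of the C/D box class guide ribose methylation of ribosomal RNA, and those of the H/ACA class guide its pseudouridylation. In human cells most are cut out of introns after splicing, and a host gene thus makes a guide RNA and a spliced RNA from 1 transcript. The spliced RNAs of several noncoding hosts, with GAS5 as the classical example, are exported, meet ribosomes on short reading frames and are removed by nonsense-mediated decay, so that their level rises when translation is blocked. Many hosts start transcription in a tract of pyrimidines, the TOP element known from ribosomal protein genes.

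The small RNAs that these genes carry are shown first, because they are what the family is named for. The files hold 139 rows of small nucleolar or Cajal body RNAs inside 29 of the 31 members, of which 110 are C/D box, 25 are H/ACA box and 4 are Cajal body RNAs (scaRNAs). SNHG14 alone holds 84 of them. No such row lies in GAS5 in this gene set, while RefSeq places 10 C/D box RNAs and 1 H/ACA RNA within it. The sequences below are 5 of the RNAs described further on, together with SNORD49A of the most counted member, read from GENCODE 29 on GRCh38. Capitals mark the TGATGA form of box C and the CTGA of box D in C/D RNAs, and the closing ACA box in the H/ACA RNA. SNORD1B lies in an intron of SNHG16 at chr17:76561109-76561192 on the plus strand, and SNORD12C in an intron of ZFAS1 at chr20:49278940-49279028 on the plus strand. SNORD49A lies in SNHG29 at chr17:16440036-16440106 and SNORD104 in SNHG25 at chr17:64146083-64146152, both on the plus strand. SNORD99 lies in SNHG12 at chr1:28578749-28578822 on the minus strand, and its box C does not have the letters TGATGA. SNORA13 lies in EPB41L4A-AS1 at chr5:112161485-112161617 on the plus strand.
SNORD1B: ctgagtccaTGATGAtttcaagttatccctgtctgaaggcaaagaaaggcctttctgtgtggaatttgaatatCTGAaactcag
SNORD12C: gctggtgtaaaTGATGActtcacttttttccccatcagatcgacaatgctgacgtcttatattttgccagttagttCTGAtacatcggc
SNORD49A: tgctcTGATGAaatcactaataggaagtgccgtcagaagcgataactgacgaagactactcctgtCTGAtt
SNORD104: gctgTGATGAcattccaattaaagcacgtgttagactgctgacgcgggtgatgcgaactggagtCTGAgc
SNORD99: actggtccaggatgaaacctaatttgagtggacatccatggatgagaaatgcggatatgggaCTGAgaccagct
SNORA13: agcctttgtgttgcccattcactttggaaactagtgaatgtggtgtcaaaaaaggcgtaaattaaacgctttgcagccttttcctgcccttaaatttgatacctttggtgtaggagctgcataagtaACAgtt

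The start sites of the hosts were read for the pyrimidine tract, because hosts are often described as TOP genes. RefSeq promoters of GRCh38.p14 were at hand for 27 of the 31 members. A C at the start site followed by at least 4 more of C or T, on the strand of the gene, was found in 7 of these 27 (25.9%), compared with 4.07% of 35116 promoters. The 7 are SNHG4, SNHG5, SNHG12, SNHG18, SNHG19, SNHG32 and ZFAS1. The windows of 6 of them follow, with 20 bases before the start site and 30 from it, and with the unbroken run of C and T at the start site in capitals. SNHG4 is at chr5:139274081-139274130 on the plus strand, SNHG5 at chr6:85678704-85678753 on the minus strand and SNHG12 at chr1:28581844-28581893 on the minus strand. SNHG19 is at chr16:2155329-2155378 on the minus strand, SNHG32 at chr6:31834896-31834945 on the plus strand and ZFAS1 at chr20:49278622-49278671 on the plus strand. Letters CACGTG, searched on both strands of the 300 bases around the start site, were in 2 of 27 members (7.41%) and in 7.26% of all promoters, and TATAAA, searched the same way, was in 4 of 27 (14.8%) and in 11.5% of all. A match describes these letters only and is no evidence of a factor's binding.
SNHG4: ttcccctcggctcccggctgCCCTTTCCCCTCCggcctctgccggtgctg
SNHG5: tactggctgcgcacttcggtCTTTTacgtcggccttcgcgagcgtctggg
SNHG12: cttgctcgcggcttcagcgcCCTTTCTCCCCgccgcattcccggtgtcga
SNHG19: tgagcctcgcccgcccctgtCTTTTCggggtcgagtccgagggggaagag
SNHG32: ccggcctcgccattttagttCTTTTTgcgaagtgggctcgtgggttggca
ZFAS1: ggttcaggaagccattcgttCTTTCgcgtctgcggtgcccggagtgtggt

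Total counts ran from 23206414 to 33222162 per library. Mitochondrial genes took 6.26% to 17.0% of the counts in 10 libraries, and 22.6% in teriflunomide replicate 3 and 24.9% in combination replicate 2. These 2 libraries stand apart from the others of their groups, and counts of members without both of them are given beside the main counts, with the share of all genes called in the same fit. Of the fixed markers, CPM (counts per 1000000 counts of the library, scaled by edgeR's TMM factors) summed over 4 leukocyte genes stayed at or below 2.42 in every library. Of the regulators that define small cell lung cancer subtypes, YAP1 was at 246 CPM, NEUROD1 at 4.03 CPM and POU2F3 under 1 CPM in control, and 3 of 6 neuroendocrine and 3 of 4 epithelial markers were also under 1 CPM. Collagen genes COL1A1 and COL1A2 were at 266 and 270 CPM in control. The summed level of the fibroblast and endothelial list was 519 to 549 CPM in control and 186 to 220 CPM with lurbinectedin. The other 3 genes of that list, DCN, PECAM1 and VWF, were under 1 CPM in control, so the 2 collagens make up nearly all of the sum. The part of that list in the results below was not tested. All groups are the 1 line SBC3, and bulk RNA does not show whether cells of the line differ in their collagen level.

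Lurbinectedin raised most of the family. Of the 28 tested members, 23 rose and 2 fell, against a background in which 71.6% of all 16683 tested genes were called, 36% higher and 35.7% lower. The median log2 fold change of the members was 1.24, and that of all tested genes was 0.05. The changes of members that rose ran from 0.79 for SNHG10 to 2.78 for SNHG9, while SNHG14 and SNHG31 fell, and SNHG4, SNHG22 and SNHG30 did not pass the test. Calls are from edgeR's quasi-likelihood test with Benjamini-Hochberg adjustment over all tested genes, at an adjusted p under 0.05. The same counts, 23 and 2, were found without teriflunomide replicate 3 and combination replicate 2, with 79.6% of all genes then called. Neither library is in the groups compared here, so only the shared parts of the fit could move. Leaving out single control or lurbinectedin libraries gave 22 or 23 members higher and 2 lower, with 65.1% to 66.2% of all genes called.

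**Figure D1:**
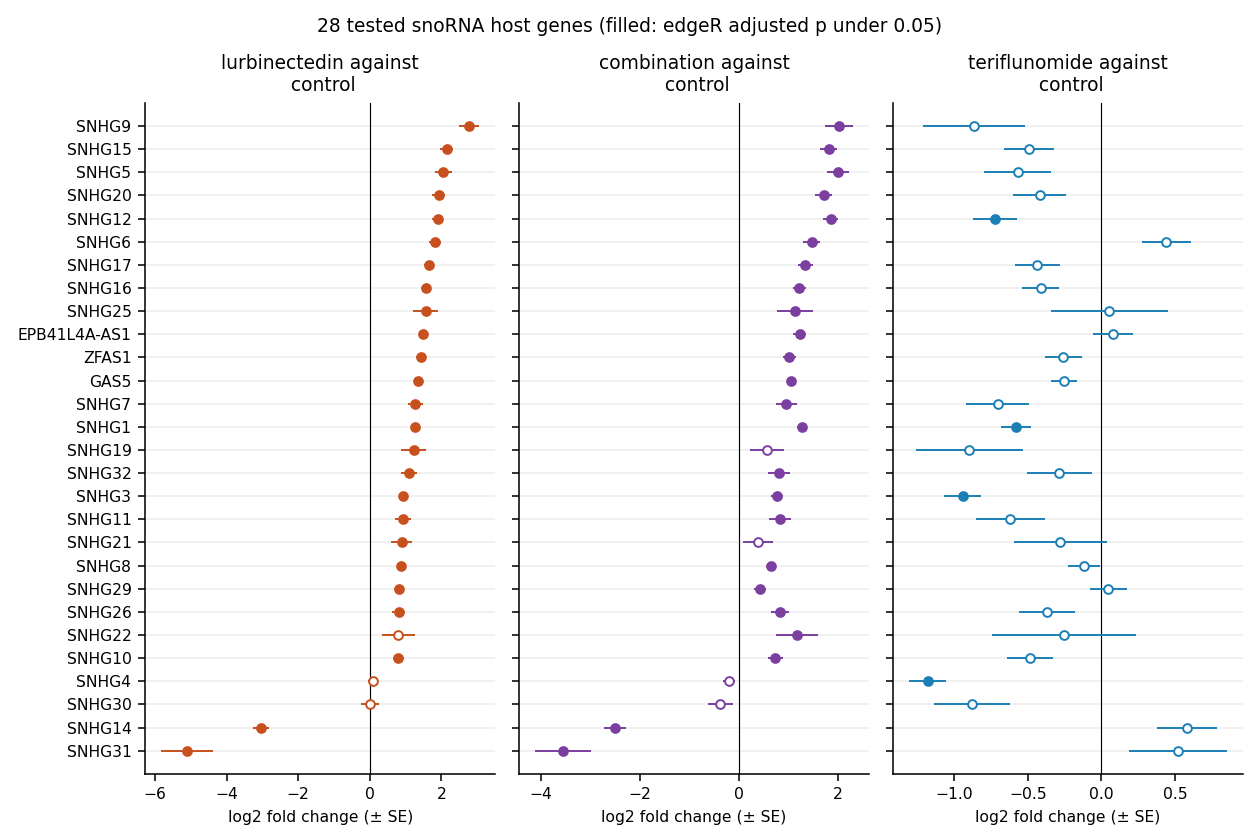
Log2 fold change against control with its standard error (horizontal axis, separate scale in each panel) for the 28 tested host genes, for lurbinectedin, the combination and teriflunomide; filled points have an edgeR adjusted p under 0.05. With lurbinectedin 23 filled points lie right of 0 and 2 left of it, with the combination 22 and 2, and with teriflunomide 0 and 4.

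The family's share of all counts gives the same difference as a part of each library. It was 0.135% ± 0.0052 (SD, n = 3) in control and 0.249% ± 0.0097 (SD, n = 3) with lurbinectedin. Like the CPM and fold changes of this report, this share is relative to the other RNA of a library. No amount of RNA per cell is given, so a rise here is a rise within the library. The single libraries were at 0.141%, 0.131% and 0.132% in control, at 0.129%, 0.133% and 0.0924% under teriflunomide, at 0.258%, 0.249% and 0.238% under lurbinectedin, and at 0.212%, 0.203% and 0.220% under both drugs. All 6 libraries that received lurbinectedin were above all 6 that did not, and the lowest value belongs to teriflunomide replicate 3. SNHG29 took the largest part of these counts, and without it the mean shares were 0.0849% (control), 0.0687% (teriflunomide), 0.175% (lurbinectedin) and 0.152% (both drugs). Counted over nuclear genes only, the shares were 0.144%, 0.135%, 0.296% and 0.257% in the same order.

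**Figure D2:**
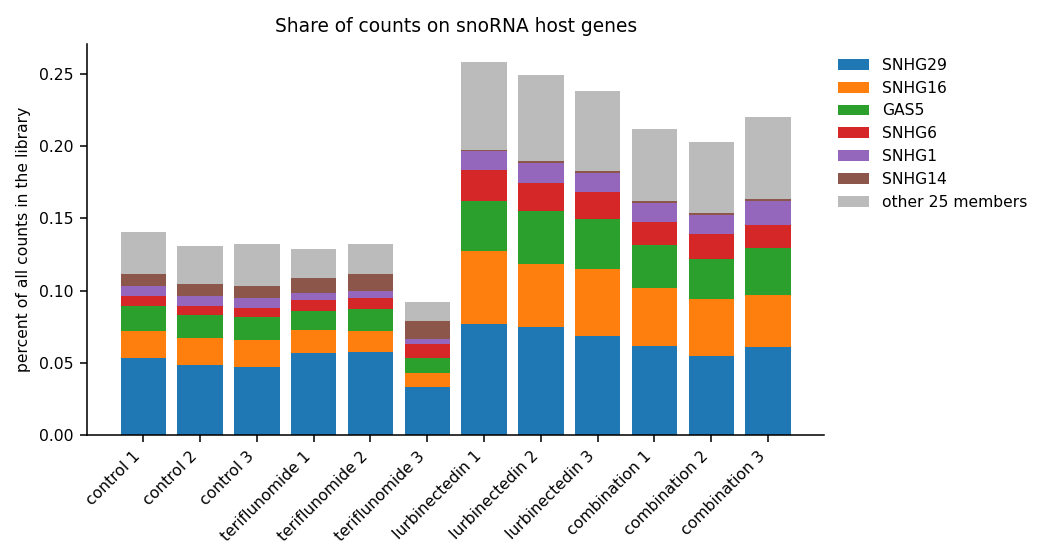
Percent of each library's counts (vertical axis, from 0) on the 31 host genes, as stacked bars for the 12 libraries, with the 6 largest members coloured and the other 25 in grey. The lurbinectedin bars reach 0.238% to 0.258%, and the control bars 0.131% to 0.141%.

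Per kilobase of annotated exon, the members spanned a wide range in control. SNHG29, the host of SNORD49A, SNORD49B and SNORD65, stood highest at 63.6 ± 3.5 CPM per kb (SD, n = 3), and SNHG6, the host of SNORD87, followed at 48.6 ± 2.6. Next came SNHG16 at 32.0 ± 0.38 and GAS5 at 30.8 ± 1.3, which do not differ beyond their spread, and then SNHG1 at 15.5 ± 0.33 and SNHG19 at 10.4 ± 0.79. At the low end of the tested members SNHG31 was at 0.241 ± 0.053 and SNHG22 at 0.114 ± 0.036. With lurbinectedin SNHG6 was the highest member at 173 ± 20 CPM per kb, ahead of SNHG29 at 111 ± 10. Exon lengths are the union over all annotated transcripts, so members with long rare exons are placed low by this scale.

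The 3 members without an SNHG name all rose with lurbinectedin. GAS5 (ENSG00000234741.8), at chr1:173858559-173868882 on the minus strand, is a growth-arrest transcript that also binds the glucocorticoid receptor. GAS5 stood at 157, 145 and 147 CPM in control, at 124, 132 and 119 under teriflunomide, at 388, 393 and 362 under lurbinectedin, and at 296, 337 and 304 under both drugs. The 4 groups of GAS5 values do not overlap, with the lowest in teriflunomide and the highest in lurbinectedin. Its log2 fold change was 1.35 ± 0.09 (SE, n = 3 per group) with lurbinectedin (edgeR adjusted p = 1.0e-08), 1.06 ± 0.09 with the combination (edgeR adjusted p = 1.3e-07) and -0.25 ± 0.09 with teriflunomide (edgeR adjusted p = 0.10). Without the 2 libraries that stand apart, the value with teriflunomide was -0.22 and its edgeR adjusted p 0.032.

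ZFAS1 (ENSG00000177410.13), at chr20:49278178-49299600 on the plus strand, begins beside the start of ZNFX1 and carries the SNORD12 family. The ZFAS1 level was 19.8, 21.2 and 19.4 CPM in control, 17.4, 18.9 and 14.3 under teriflunomide, 60.8, 52.9 and 48.7 under lurbinectedin, and 41.9, 42.6 and 38.3 under both drugs. No value of one group lies inside the range of another. The log2 fold change of ZFAS1 with lurbinectedin was 1.42 ± 0.13 (SE, n = 3 per group, edgeR adjusted p = 2.3e-07). Exons of ZNFX1 overlap those of ZFAS1 on the other strand, and the sources used here do not say whether counting used strand. ZNFX1, an RNA helicase-like antiviral sensor, itself rose by 2.31 on the log2 scale, from 44.0 to 218 CPM. Reads of the shared stretch cannot be told apart, and their part in the rise of ZFAS1 was not tested.

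EPB41L4A-AS1 (ENSG00000224032.7), at chr5:112160526-112164818 on the plus strand, is the host of SNORA13 shown above. Its levels were 10.4, 10.3 and 10.6 CPM in control, 9.995, 9.97 and 13.0 under teriflunomide, 33.0, 27.8 and 27.3 under lurbinectedin, and 23.3, 26.8 and 23.2 under both drugs. The lurbinectedin values lie above all others, and the teriflunomide values surround those of control. The log2 fold change with lurbinectedin was 1.497 ± 0.14 (SE, n = 3 per group, edgeR adjusted p = 2.6e-07). Exons of EPB41L4A cover 56.4% of its exon length from the opposite strand, and that gene had too few counts to be tested.

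The 5 largest rises with lurbinectedin were in SNHG9, SNHG15, SNHG5, SNHG20 and SNHG12. SNHG9, the host of SNORA78 and 0.551 kb long, was at 0.905, 1.10 and 1.195 CPM in control and at 9.88, 5.28 and 7.01 with lurbinectedin, a 6.85-fold rise. SNHG15, the host of SNORA9, was at 14.6, 14.5 and 15.8 CPM in control and at 69.5, 66.7 and 62.3 with lurbinectedin. Both genes were lower in all 3 teriflunomide libraries than in any control library, without passing the test there. How many of all genes separate in this way was not counted. SNHG5, which carries the SNORD50 pair, was at 16.9, 18.0 and 16.9 CPM in control and at 72.3, 80.7 and 61.7 with lurbinectedin, and its combination values of 61.7, 97.2 and 49.5 spread the most, with combination replicate 2 the highest. SNHG20, the host of SCARNA16, was at 2.48, 2.34 and 2.99 CPM in control and at 10.9, 9.15 and 9.60 with lurbinectedin. SNHG12, which holds SNORD99 and H/ACA RNAs, was at 15.1, 13.7 and 16.7 CPM in control and at 54.7, 60.4 and 53.8 with lurbinectedin. The 5 were picked by their rise in these same libraries. That none shows any overlap between the control and lurbinectedin libraries adds no support to their calls.

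The log2 fold changes with lurbinectedin of these 5 were 2.78 ± 0.28, 2.14 ± 0.17, 2.05 ± 0.23, 1.92 ± 0.17 and 1.89 ± 0.15 (SE, n = 3 per group), with edgeR adjusted p-values from 6.1e-08 to 2.3e-06. In SNHG20, exons of SEC14L1 and a small RNA on the same strand cover 8.89% of its exon length, and SEC14L1 was lower with lurbinectedin, at 39.5 CPM against 101 in control.

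**Figure D3:**
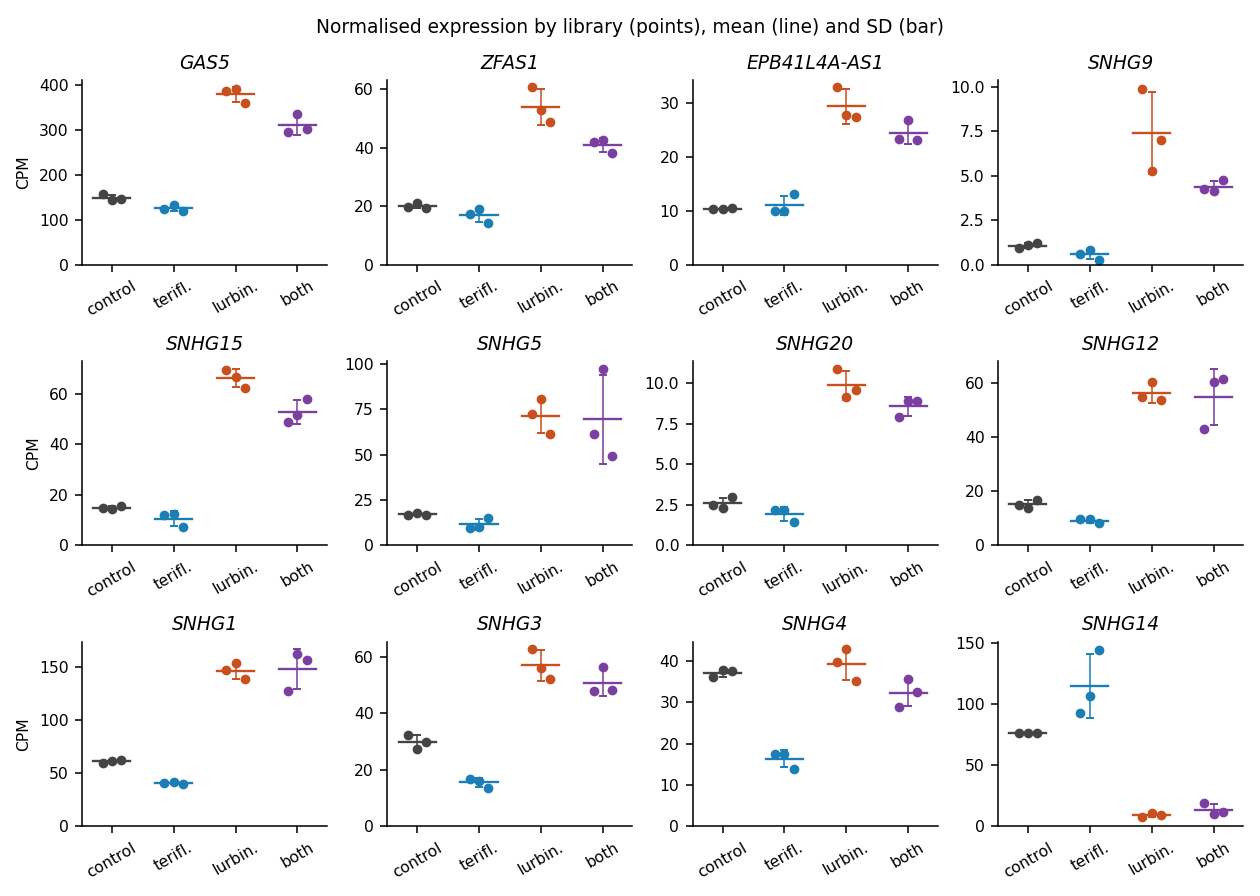
CPM (vertical axis, from 0, separate scale in each panel) of 12 host genes in the 12 libraries, as points by group, with the mean as a line and the SD as a bar; terifl., lurbin. and both stand for teriflunomide, lurbinectedin and the combination. GAS5 sits at 362 to 393 with lurbinectedin and at 145 to 157 in control, SNHG14 at 7.61 to 11.02 and about 76.7, and the SNHG4 libraries under teriflunomide, at 14.0 to 17.6, lie below all others.

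The other 15 members that rose with lurbinectedin changed by 0.79 to 1.83 on the log2 scale. The largest of these were SNHG6 at 1.83 and SNHG17 at 1.65, a host of the SNORA71 family. SNHG16, the host of SNORD1A, SNORD1B and SNORD1C, was at 170, 174 and 171 CPM in control and at 568, 466 and 483 with lurbinectedin, a log2 fold change of 1.56 ± 0.13. SNHG25 also changed by 1.56 but from under 0.36 CPM. SNHG7 rose by 1.27, SNHG1 by 1.26, SNHG19 by 1.22 and SNHG32 by 1.09. Smaller rises were those of SNHG3 at 0.93, SNHG11 at 0.92, SNHG21 at 0.89, SNHG8 at 0.87, SNHG29 and SNHG26 at 0.80 each and SNHG10 at 0.79. SNHG29, the most counted member, went from 482, 455 and 431 CPM in control to 866, 804 and 720 with lurbinectedin. All 23 members that rose had every lurbinectedin library above every control library. They were picked by their call in these same libraries, so this adds no support to the calls. The share of all genes without overlap was not counted, in this or in any other comparison of this report. SNHG21 is the least firm of them: its edgeR adjusted p was 0.015, and it was 0.054 without control replicate 1 and 0.091 without lurbinectedin replicate 1.

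Annotated exons of other genes bear on some of these. They cover 37.6% of the exon length of SNHG8 (PRSS12), 30.3% of SNHG7 (DIPK1B), 30.6% of SNHG16 and 29.3% of SNHG6 (MCMDC2) on the opposite strand. PRSS12 changed the other way from SNHG8, by -0.96 on the log2 scale, and DIPK1B was at 26.5 CPM in control and 21.3 with lurbinectedin. On the same strand they cover 72.9% of SNHG21, 48.6% of SNHG25 and 23.2% of SNHG32. Counts of these stretches are uncertain for both genes of each pair.

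SNHG14 and SNHG31 fell with lurbinectedin, and they are the 2 tested members with a genomic span over 100 kb. SNHG14 (ENSG00000224078.15), at chr15:24978583-25420336 on the plus strand, is the long imprinted transcript of the Prader-Willi region that carries the SNORD115 and SNORD116 clusters and runs antisense to UBE3A. It was at 76.8, 76.6 and 76.7 CPM in control, 93.1, 107 and 144 under teriflunomide, 7.61, 11.02 and 9.16 under lurbinectedin, and 18.8, 10.2 and 11.6 under both drugs. Both groups that received lurbinectedin lie far below control, and the teriflunomide libraries lie above it, with teriflunomide replicate 3 the highest. The log2 fold change of SNHG14 was -3.05 ± 0.23 (SE, n = 3 per group, edgeR adjusted p = 3.9e-08) with lurbinectedin and 0.58 ± 0.21 (edgeR adjusted p = 0.11) with teriflunomide. UBE3A, the ubiquitin ligase on the other strand, was at 182 CPM in control and 82.7 with lurbinectedin.

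SNHG31 (ENSG00000229267.3), at chr2:214810181-214963575 on the plus strand, had 57 counts over the control libraries, 85 over those of teriflunomide, 1 over those of lurbinectedin and 4 over those of both drugs. Scaled by library totals with edgeR's TMM factors, the level in control was 45.1 times that with lurbinectedin. The 95% exact interval of this ratio was 7.77 to 1811 and covers counting error only. The log2 fold change of SNHG31 in edgeR was -5.11 ± 0.73 (adjusted p = 2.5e-05), a value that depends on the prior count at so few reads.

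The direction of change differed with gene span across all tested genes, and the members can be read beside genes of their own length. Among all genes under 5 kb the median log2 fold change with lurbinectedin was 0.70 and 50.9% were higher, and the 10 members of that length had a median of 1.53 with 10 higher. From 5 to 20 kb the median of all genes was 0.59 with 55.9% higher, and the 12 members had 0.99 with 10 higher. From 20 to 100 kb the median of all genes was -0.16 with 28.3% higher, while the 4 members, SNHG5, SNHG22, SNHG29 and ZFAS1, had 1.11 with 3 higher. Over 100 kb 86.2% of all genes were lower, as were both members. The 22 members under 20 kb had a median of 1.26. Among other long noncoding RNA genes under 20 kb, 712 of 1711 were higher and 315 lower, with a median of 0.51. These are counts and medians of genes chosen by name, and no test sets the family apart from genes of like length.

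**Figure D4:**
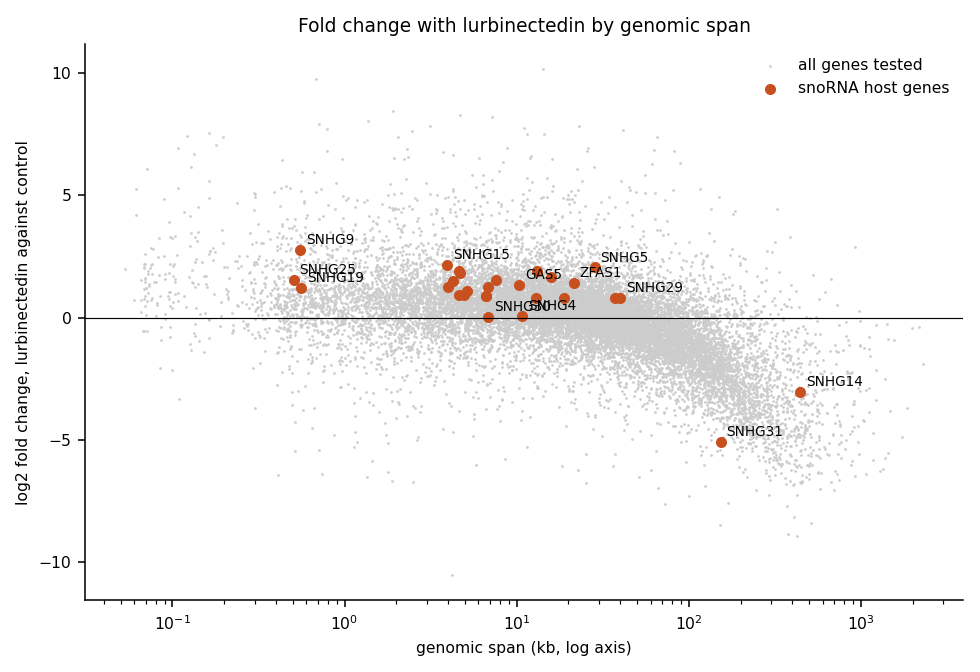
Log2 fold change with lurbinectedin against control (vertical axis) by genomic span in kb (horizontal log axis) for all 16683 tested genes in grey and the 28 tested host genes in orange. Members under 20 kb lie between 0.02 and 2.78, and the 2 members over 100 kb, SNHG14 and SNHG31, lie at -3.05 and -5.11.

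Teriflunomide alone lowered 4 members and raised none. The background is 6.01% of all tested genes called, 2.13% lower and 3.88% higher, and the median log2 fold change was -0.42 over the members and 0.03 over all tested genes. SNHG4, the host of SNORA74A and SNORA74D, was at 36.0, 37.8 and 37.6 CPM in control and at 17.5, 17.6 and 14.0 with teriflunomide. SNHG3, the host of the SNORA73 pair that takes part in processing of the small-subunit ribosomal RNA, was at 32.5, 27.3 and 29.9 CPM in control and at 16.9, 16.1 and 13.7 with teriflunomide. SNHG12 went from 15.1, 13.7 and 16.7 to 9.61, 9.73 and 8.14 CPM. SNHG1, which carries 8 C/D box RNAs in RefSeq, went from 60.0, 61.5 and 62.6 to 40.9, 42.0 and 40.4 CPM. These 4 genes were picked by their call in the same libraries. In each the teriflunomide libraries lie below all control libraries, which adds no support to the calls.

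The log2 fold changes with teriflunomide were -1.18 ± 0.13 for SNHG4, -0.94 ± 0.13 for SNHG3, -0.72 ± 0.15 for SNHG12 and -0.58 ± 0.10 for SNHG1 (SE, n = 3 per group), with edgeR adjusted p-values of 0.00036, 0.0013, 0.015 and 0.0064. SNHG12 had an adjusted p of 0.063 without control replicate 1 and 0.093 without control replicate 3, while the other 3 passed under every alternative that was run. Leaving out teriflunomide replicate 3 gave 8 members lower, adding SNHG5, SNHG7, SNHG10 and SNHG30, with 9.11% of all genes called. Leaving out combination replicate 2 as well gave 10, with 16.3% of all genes then called. SNHG30 also passed without replicate 1 or replicate 2 of teriflunomide (adjusted p 0.046 and 0.044), and SNHG7 without replicate 1 (0.034). Teriflunomide replicate 3 held the lowest teriflunomide level of SNHG7, at 13.0 CPM against 27.8 and 26.4, and the highest of SNHG5, at 15.3 against 9.64 and 10.1. SNHG6 was at 70.8, 70.6 and 106 CPM with teriflunomide and at 62.5, 62.6 and 56.9 in control, and with SNHG14, SNHG31 and 3 others it makes up the 6 members with a positive sign, none of which passed. SNHG4 shares 14.0% of its exon length with MATR3, and SNHG3 shares 5.92% with RCC1, which fell by 0.47 on the log2 scale with teriflunomide. SNHG3 at chr1:28505980-28510892 and SNHG12 at chr1:28578538-28583132 are near neighbours on opposite strands.

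SNHG4 had the most negative change with teriflunomide and was not called with lurbinectedin. With lurbinectedin it was at 39.7, 42.8 and 35.2 CPM, a log2 fold change of 0.08 ± 0.12 from control (edgeR adjusted p = 0.58). With the combination it was at 28.96, 35.6 and 32.5 CPM, all 3 under the control range and all 3 above the teriflunomide range. The combination was higher than teriflunomide alone by 0.98 ± 0.13 (edgeR adjusted p = 9.8e-06) and not called against control, at -0.20 ± 0.13 (edgeR adjusted p = 0.17). Without the 2 libraries that stand apart it was lower than control by -0.28, with an adjusted p of 0.012. SNHG30, the host of SNORD7, was likewise not called with lurbinectedin, at 7.91, 6.75 and 7.32 CPM in control and 7.66, 7.58 and 7.01 with the drug.

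In the combination 22 members were higher than control and 2 lower, where 68.4% of all genes were called, 34.1% higher and 34.4% lower. The median of the members was 0.99 and that of all tested genes 0.04. The largest changes were again in SNHG9 at 2.03, SNHG5 at 2.01, SNHG12 at 1.85 and SNHG15 at 1.82 on the log2 scale. SNHG14 at -2.50 and SNHG31 at -3.56 fell. SNHG4, SNHG19, SNHG21 and SNHG30 did not pass. SNHG22 passed at 1.17 with an edgeR adjusted p of 0.025 on few counts, which rose to 0.096 without control replicate 2, to 0.061 without control replicate 1, to 0.073 without combination replicate 1 and to 0.057 without combination replicate 2. SNHG25 had an adjusted p of 0.013, and 0.055 without control replicate 1. Without the 2 libraries that stand apart the counts were 23 higher and 4 lower, with 74.2% of all genes called. The comparisons with control share the same 3 control libraries.

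Against lurbinectedin alone the combination gave no call among the members, and 0% of all tested genes were called in edgeR. At an unadjusted p under 0.05 there were 8 members and 2599 genes, and DESeq2 called 1 member, GAS5, and 584 genes. The median over the members was -0.28 and 23 of 28 had a negative sign, with a median of 0.03 over all tested genes. ZFAS1 was lower in each combination library than in any lurbinectedin library, with a log2 fold change of -0.40 ± 0.12 (edgeR adjusted p = 0.18). The share of all genes that separate in this way was not counted. GAS5 was at -0.29 ± 0.09 (edgeR adjusted p = 0.18). Without combination replicate 2 alone edgeR still called 0 members and 1.52% of all genes, and without it and teriflunomide replicate 3 edgeR called 14 members lower and SNHG14 higher, with 21.5% of all genes called. The members then called lower ran from -0.28 for SNHG8 to -0.70 for SNHG9, with GAS5 at -0.34, SNHG16 at -0.46 and SNHG6 at -0.52.

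Against teriflunomide alone the combination was higher in 24 members and lower in 2, where 70.9% of all genes were called, 35.2% higher and 35.8% lower. The counts were 22 and 2 without both libraries that stand apart (72.6% of all genes called), and 23 and 2 without either 1 of them (73.2% of all genes called without teriflunomide replicate 3 and 66.9% without combination replicate 2). The largest rise was 2.90 in SNHG9 and the falls were in SNHG14 and SNHG31, while SNHG21 and SNHG30 did not pass. SNHG29 passed with an edgeR adjusted p of 0.014 at 0.39 ± 0.13, and had 0.057 without combination replicate 2. SNHG25 passed with 0.015, and had 0.053 without teriflunomide replicate 1 and 0.057 without teriflunomide replicate 3. SNHG30, at 0.51, had an adjusted p of 0.033 without teriflunomide replicate 2, and SNHG21, at 0.67, had 0.010 without combination replicate 1.

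The interaction asks whether the combination departs from the sum of the log2 changes of the 2 single drugs. No member passed, where 0.258% of all tested genes were called (0.036% higher and 0.222% lower), and 6 members and 1726 genes had an unadjusted p under 0.05 in edgeR. SNHG4 came nearest, at 0.90 ± 0.18 with an edgeR adjusted p of 0.060, followed by SNHG3 at 0.78 ± 0.18 (edgeR adjusted p = 0.11) and SNHG1 at 0.60 ± 0.14 (edgeR adjusted p = 0.15). Without teriflunomide replicate 3 these 3 passed, at 0.81, 0.70 and 0.59, and SNHG29 passed at -0.55, with 3.61% of all genes called. Without both libraries that stand apart 5 members passed, with 10.9% of all genes called. DESeq2 called the same 3 members, SNHG1, SNHG3 and SNHG4, among 256 genes. In SNHG1 the values show what such a term describes: the mean was 61.4 CPM in control, 41.1 under teriflunomide, 147 under lurbinectedin and 148 under both drugs.

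SNHG18, SNHG27 and SNHG28 had no count in any of the 12 libraries, which together hold 344582017 counts. For SNHG18 and SNHG27 this allows a level of up to 0.00871 CPM, with 3 counts as the limit and counting error only. Exons of other genes cover 90.8% of the exon length of SNHG28 on its strand, so no such limit is given for it. The lowest tested members, SNHG25, SNHG22 and SNHG31, had 159, 146 and 147 counts over all libraries.

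The small RNAs inside the hosts were counted as genes of their own, although libraries of polyadenylated RNA are not made to hold them. All 73 that lie wholly within annotated exons of their host had 0 counts. Reads there also fall on exons of the host, and how such reads were counted is not given. Those zeros therefore do not show that the 73 RNAs were absent. Of the 60 in introns, 11 had 1834 counts between them. Such counts can come from the unspliced host as well as from the small RNA, and these cannot be told apart. All 6 that could be tested were called higher with lurbinectedin, where 36% of all tested genes were higher. The low-count filter can keep a row for its counts in 1 group, which favours rows that rise. SNORD99 in SNHG12 had 22, 17 and 20 counts in the control libraries, and its sum went from 59 to 188 with lurbinectedin, a log2 fold change of 2.02 ± 0.26. The sum of SNORA71B in SNHG17 went from 31 to 141, a log2 fold change of 2.52 ± 0.26. That of SNORD12C in ZFAS1 went from 11 to 51, a log2 fold change of 2.51 ± 0.48. SNORA74D in SNHG4 had 23 counts in control, 7 with teriflunomide and 47 with lurbinectedin. It rose by 1.36 ± 0.34 with lurbinectedin, where its host was not called, and fell by 1.71 with teriflunomide (edgeR adjusted p = 0.049). The other 2 were SNORA73B in SNHG3 at 1.19 ± 0.33 and SNORD104 in SNHG25 at 1.197 ± 0.29.

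**Figure D5:**
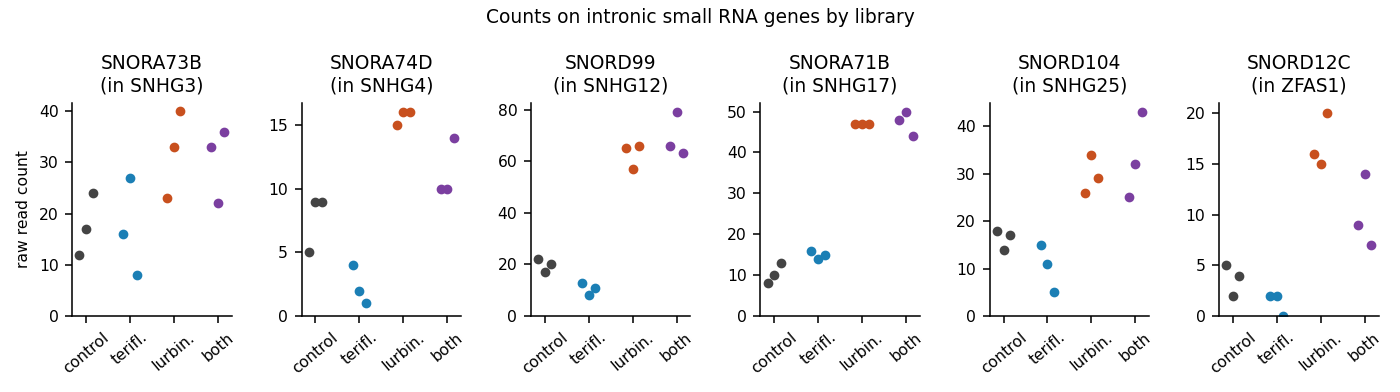
Raw read counts (vertical axis, from 0, separate scale in each panel) on 6 small RNA genes in introns of host genes, as points for the 12 libraries by group; terifl., lurbin. and both stand for teriflunomide, lurbinectedin and the combination. The lurbinectedin points of SNORD99 and SNORA71B lie above all control points.

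The proteins that bind snoRNAs were read as a list, beside the 36% of all tested genes that were higher and the 35.7% that were lower with lurbinectedin. Of 8 core proteins of the C/D and H/ACA particles, 6 rose and none fell with lurbinectedin, with a median log2 fold change of 0.49. NOP56, a C/D core protein, went from 224 ± 4.0 to 644 ± 33 CPM (SD, n = 3), a change of 1.52, and is itself a snoRNA host. SNU13 changed by 0.72, NOP58 by 0.62 and DKC1, the pseudouridine synthase, by 0.47. With teriflunomide FBL, the methyltransferase, fell by 0.49 and DKC1 by 0.39. Of 12 assembly factors 5 rose and 3 fell with lurbinectedin (41.7% and 25%), so that the share called is near the 71.6% of all genes. Among them were NOPCHAP1 at 2.65 and ZNHIT3 at 0.83 upward and SHQ1 at -1.12 and RUVBL1 at -0.87 downward. None of the 12 was called with teriflunomide, where 6.01% of all tested genes were called. An unadjusted p under 0.05 in edgeR was found there for 3 of the 12 and for 4143 of all 16683 tested genes.

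The factors of nonsense-mediated decay, which removes spliced RNAs of several hosts, were read the same way. Of 16, 9 rose and 4 fell with lurbinectedin, with a median of 0.45, where 36% of all genes were higher and 35.7% lower, so that members called in both directions are also found among all genes. UPF1, the central helicase, went from 157 ± 7.5 to 441 ± 37 CPM (SD, n = 3), a change of 1.49, and SMG6, the endonuclease, from 68.2 ± 3.4 to 12.02 ± 0.12 CPM, a change of -2.50. SMG8 rose by 1.18 and CASC3 by 0.92. None of the 16 was called with teriflunomide, where 6.01% of all tested genes were called. In edgeR 3 of the 16 had an unadjusted p under 0.05 there, as had 4143 of all 16683 tested genes.

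Protein-coding snoRNA hosts give the nearest comparison for the noncoding ones. Of 40 tested, 35 rose and 1 fell with lurbinectedin, with a median of 0.65, next to 1.24 for the noncoding family and to 36% higher and 35.7% lower among all genes. EIF4A2, a translation initiation helicase, changed by 2.03, EEF2 by 1.1995 and RPL12 by 1.11. With teriflunomide 1 rose and 2 fell, with a median of -0.13, a share near the 6.01% of all genes called. With the combination 22 rose and 1 fell, with a median of 0.38, where 34.1% of all genes were higher and 34.4% lower. Of 10 other TOP genes outside the ribosome, 4 rose and 3 fell with lurbinectedin (40% and 30%), shares near those of all genes, with a median of -0.17. They include EEF1D at 0.64 upward and EIF3H at -0.77, HNRNPA1 at -0.70 and VIM at -0.72 downward. The differences between these lists were not tested.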

How the data were processed

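RNA of 12 SBC3 libraries was counted per gene. The values are raw read counts as deposited by the authors. Per the submitters' processing notes, reads were handled with fastp 0.23.2, STAR 2.7.9, Subread and featureCounts on hg38. The annotation release, strand setting and treatment of multi-mapping reads are not given in the sources used here. All 37288 gene identifiers with the same version in GENCODE 29 had the same coordinates there, so coordinates are GRCh38. Symbols were matched for 60463 identifiers (99.7%).

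The members and lists were chosen with earlier results of these data known. Counts went as deposited into edgeR 4.0.16 in R 4.3.3, with filterByExpr (16683 genes kept), TMM scaling and 1 quasi-likelihood fit over all 4 groups with no covariate. CPM values use the same scaling. Adjusted p-values are Benjamini-Hochberg over all genes tested within each of 6 contrasts. The fit was also run on simulated counts in which few genes changed, so that run does not test the scaling where most genes change. Named genes were GAS5, ZFAS1 and EPB41L4A-AS1, the 5 largest rises and the falls with lurbinectedin, all calls with teriflunomide, members at 0, and the 4 genes of smallest adjusted p per list. Other members are given by value. Those named for low or borderline values, and the further list genes, were chosen after their values were seen. Total counts limit precision, and intervals cover counting error only. DESeq2 1.42.0 and other settings were alternatives. Same-numbered libraries did not deviate together, so replicate numbers were not used as pairs. Values of some neighbouring and marker genes are not reported here.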

Additional observations from a re-analysis of the deposited data

How the results depend on the processing

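Limits come first. The groups hold 3 libraries each, strand and multi-mapping settings are not known, and doses and times are not given. For lurbinectedin, the combination against control and the combination against teriflunomide, the count of members called stayed within 1.5 times in every alternative, and 23 of 25, 19 of 24 and 24 of 26 calls held in all of them. With library size as the only scaling, the median of all genes with lurbinectedin moved from 0.05 to -0.18, the share of its calls that were higher from 50.2% to 39.2%, and 21 members were still higher and 2 lower, SNHG19 (0.98) and SNHG21 (0.65) no longer passing. The same scaling moved the median with the combination from 0.04 to -0.13. The share of all genes called in the same fit is given in brackets. For teriflunomide against control, 4 members were called (6.01%), and 14 with no filter on low counts (5.06%), of which 2 higher and 12 lower. There were 11 with DESeq2 (12.3%) and 10 without teriflunomide replicate 3 and combination replicate 2 (16.3%). Leaving out single libraries gave 3 to 8 (1.26% to 9.11%). For the combination against lurbinectedin the counts were 0 (0%), 2 with no filter (1.72%), 1 with DESeq2 (4.94%) and 15 without both libraries (21.5%). For the interaction they were 0 (0.258%), 3 with no filter (0.548%), 3 with DESeq2 (1.82%), 5 without both libraries (10.9%) and 0 to 4 when single libraries were left out (0.0117% to 3.61%). The causes of these moves were not tested. Some values near 0 changed sign. SNHG30 with lurbinectedin (0.02) was -0.0082 with DESeq2 size factors, -0.22 with library size, -0.058 with no filter, -0.0042 with only the 2 groups in the fit, -0.0079 with DESeq2 and -0.042 to 0.067 when single libraries were left out. SNHG4 with lurbinectedin was -0.16 with library size. With teriflunomide, library size gave -0.017 for EPB41L4A-AS1, -0.013 for SNHG29 and -0.015 for SNHG25. EPB41L4A-AS1 was -0.060 without both libraries. Leaving out single libraries gave -0.061 to 0.15 for EPB41L4A-AS1, -0.86 to 0.10 for SNHG22, -0.38 to 0.35 for SNHG25 and -0.037 to 0.19 for SNHG29. The shares of counts moved as the report gives them: over nuclear genes 0.144% in control, 0.296% with lurbinectedin and 0.257% with the combination, and without SNHG29 0.0849%, 0.0687%, 0.175% and 0.152% in the 4 groups. With a replicate block the members called were 4 with teriflunomide (2.49% of all genes), 25 with lurbinectedin (69.5%) and 24 with the combination (66.2%). For the combination they were 0 against lurbinectedin (0%) and 26 against teriflunomide (68.8%), and in the interaction 0 (0.048%). The block thus changed no count of members, while the share of all genes called with teriflunomide went from 6.01% to 2.49%. Same-numbered libraries of different groups had correlations of -0.547 to 0.248 over 18 pairs, 4 of them over 0.1, and share only a number.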
